A study of Arabidopsis thaliana with 24 samples.

Results

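The 10 genes described here are regulators of the iron deficiency response and genes of iron uptake in Arabidopsis thaliana, followed by RNA sequencing in seedlings of 9 mutant or RNAi genotypes and of the wild-type accession Col-0. They were chosen by gene identifier and not by a rule on measured values, though with earlier results of these data known. Each of 3 deposited tables held 32548 genes. All 10 were found in every table and passed the filter on low values in each. The transcription factor genes were BHLH38 (AT3G56970), BHLH39 (AT3G56980), BHLH100 (AT2G41240), BHLH101 (AT5G04150) and FIT (AT2G28160). The peptide genes were IMA1 (AT1G47400) and IMA3 (AT2G30766), and the uptake and reductase genes were IRT1 (AT4G19690), FRO2 (AT1G01580) and FRO3 (AT1G23020).

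Plants that run short of iron switch on a cascade of basic helix-loop-helix (bHLH) transcription factors. The subgroup Ib factors BHLH38, BHLH39, BHLH100 and BHLH101 pair with FIT in the root epidermis and activate IRT1, the main high-affinity iron transporter of the root, and FRO2, the ferric chelate reductase that supplies it with ferrous iron. IMA peptides, small peptides that also move in the phloem, raise the response, and FRO3 encodes a reductase found at mitochondria. Upstream of the Ib genes stand bHLH factors of subgroups IVb and IVc, some of which the ubiquitin ligase BTS marks for breakdown.

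The series concerns COMPASS, the complexes that methylate histone H3 at lysine 4, and its title asks how redundantly they act on gene expression. Set 1, as the first table is called here, held ino80, a mutant of the chromatin remodeller gene INO80, and its own Col-0 libraries. Set 2 held jmj24 and atx4/5;jmj24 with Col-0, and set 3 held jmj24/26/28, WDR5A_RNAi, atx1/2, atx4/5, atx1/2/4/5 and atx2/3/4/5 with Col-0. The atx genotypes are combined mutants of the histone methyltransferase genes ATX1 to ATX5, the jmj genotypes carry mutations in JMJ24, JMJ26 and JMJ28, which encode JmjC-domain proteins, and WDR5A_RNAi is an RNA interference line against a core COMPASS subunit. All seedlings were 11 days old, grown on Murashige and Skoog medium in long days (23 °C during 16 h of light, 22 °C during 8 h of darkness), and none was labelled as starved of iron. Alleles, and the promoter of the RNAi construct, are not given in the sources used here.

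Each genotype had 2 libraries, against 2 Col-0 libraries of its own table, with an estimated 18.8 to 34.4 M reads per library. Nothing in the labels says that replicates came from separate cultures, so p-values reflect how far these libraries spread, which may be technical in part or whole. Of 21 combinations of a genotype and a gene named in it, the gene was lower than in Col-0 in 13, higher in 2 and not called in 6. The 6 were ATX1 and ATX2 in both atx1/2 and atx1/2/4/5, ATX2 in atx2/3/4/5 and ATX5 in atx4/5;jmj24. ATX2 stood at 1313 and 1318 in atx1/2 and 1382 and 1347 in atx1/2/4/5, against 1273 and 1393 in Col-0, and ATX1 at 181 and 181 in atx1/2 and 568 and 191 in atx1/2/4/5, against 258 and 257. ATX5 had 518 and 638 in atx4/5;jmj24, against 434 and 476 in Col-0. For these genes the transcript level does not check the label, and genotypes are called as labelled. WDR5A stood at 870 and 965 in the libraries labelled WDR5A_RNAi, against 86.9 and 113 in Col-0, and ATX3 at 740 and 640 in those labelled atx2/3/4/5, against 388 and 384 in Col-0. Both levels were higher rather than lower, which neither checks the label nor shows it to be wrong. The cause was not tested, and these libraries are called by their label. The seedlings were whole, with all 19 root markers and all 8 leaf markers above the filter in every table. In such bulk samples, fewer cells of a type and less RNA per cell cannot be told apart.

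BHLH38 and BHLH39 lie side by side on chromosome 3 (TAIR10.1, 21084035 to 21085245 and 21086390 to 21087710, both on the minus strand), with 1144 bases and no gene between them. BHLH100 is on chromosome 2 (17198037 to 17199454, minus strand) and BHLH101 on chromosome 5 (1138410 to 1139633, minus strand). The 250 bases upstream of each annotated start are shown because these 4 genes moved together across libraries. They are RefSeq reference sequence in TAIR10.1, 5′ to 3′ on the strand of the gene, and capitals mark CACGTG, the palindrome known as the G-box core, which bHLH factors can bind. The windows are chr3:21085246-21085495 for BHLH38, chr3:21087711-21087960 for BHLH39, chr2:17199455-17199704 for BHLH100 and chr5:1139634-1139883 for BHLH101, all on the minus strand.
BHLH38: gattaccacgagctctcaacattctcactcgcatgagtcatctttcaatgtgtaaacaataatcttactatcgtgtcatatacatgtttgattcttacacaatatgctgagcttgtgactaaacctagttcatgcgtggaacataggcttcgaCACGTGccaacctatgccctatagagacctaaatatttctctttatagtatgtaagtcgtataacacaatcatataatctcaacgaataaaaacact
BHLH39: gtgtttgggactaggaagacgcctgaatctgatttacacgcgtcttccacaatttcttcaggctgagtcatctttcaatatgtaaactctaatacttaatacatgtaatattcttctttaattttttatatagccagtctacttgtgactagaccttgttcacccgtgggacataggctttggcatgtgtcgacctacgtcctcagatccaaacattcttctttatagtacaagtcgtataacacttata
BHLH100: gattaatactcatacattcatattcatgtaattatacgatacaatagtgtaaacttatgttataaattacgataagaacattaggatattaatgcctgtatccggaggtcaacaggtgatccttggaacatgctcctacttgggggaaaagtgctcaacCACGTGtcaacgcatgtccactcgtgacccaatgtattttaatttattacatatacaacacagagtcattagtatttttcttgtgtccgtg
BHLH101: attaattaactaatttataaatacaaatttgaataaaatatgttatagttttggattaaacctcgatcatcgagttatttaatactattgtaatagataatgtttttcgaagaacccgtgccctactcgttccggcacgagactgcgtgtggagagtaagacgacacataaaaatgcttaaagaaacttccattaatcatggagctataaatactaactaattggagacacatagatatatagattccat

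CACGTG reads the same on both strands and was found once in BHLH38, 97 bases before the start, and once in BHLH100, 91 bases before it, and in none of the other 8 members. Of 27443 promoters of the same length in the genome, 6.49% hold it. The looser form CANNTG, which includes CACGTG and can be bound by many bHLH factors, was in 55.3% of promoters. It occurred once each in BHLH38, BHLH39 and FIT and at 2 places each in BHLH100, IMA1 and IMA3, and was not in the windows of BHLH101, IRT1, FRO2 and FRO3. BHLH101 thus differed from the other Ib genes in this window, and a match is a description of letters only.

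In Col-0 of set 3, IRT1 and FRO3 had the highest levels per length of the 10 genes. As normalised read counts per kb of exon, where the authors' values are normalised within a table, IRT1 averaged 672 ± 169 and FRO3 511 ± 77.9 (SD, n = 2 each). FIT followed at 201 ± 1.75 and FRO2 at 189 ± 80.2. The Ib genes and peptides lay below, with BHLH100 at 146 ± 58.2, IMA3 at 124 ± 40.6, BHLH39 at 116 ± 63.2, BHLH38 at 110 ± 55.2, BHLH101 at 103 ± 1.27 and IMA1 at 83.1 ± 15.5. From FIT down to BHLH101, each neighbour in this order differed by less than the larger of the 2 SDs, as did IRT1 and FRO3. The drop between FRO3 and FIT exceeded both.

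The order was not the same in the other tables, which were normalised separately, so that levels are set side by side without a test. In Col-0 of set 2, IRT1 averaged 101 ± 95.8 and FRO2 15.3 ± 15.6 per kb, below BHLH100 at 314 ± 34.3, BHLH39 at 208 ± 47.8 and FRO3 at 394 ± 22.5. In Col-0 of set 1, the Ib genes were between 24.8 and 58.5 per kb while IMA3 was at 177 ± 43.7. The sets also differed in PRR7, 1 of 10 clock genes listed, which was picked after its values were seen. This clock gene had 164 and 176 normalised read counts in Col-0 of set 2, against 2678 and 2707 in Col-0 of set 1 and 4915 and 5199 in Col-0 of set 3. The part of the clock in the levels of iron genes was not tested.

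**Figure D1:**
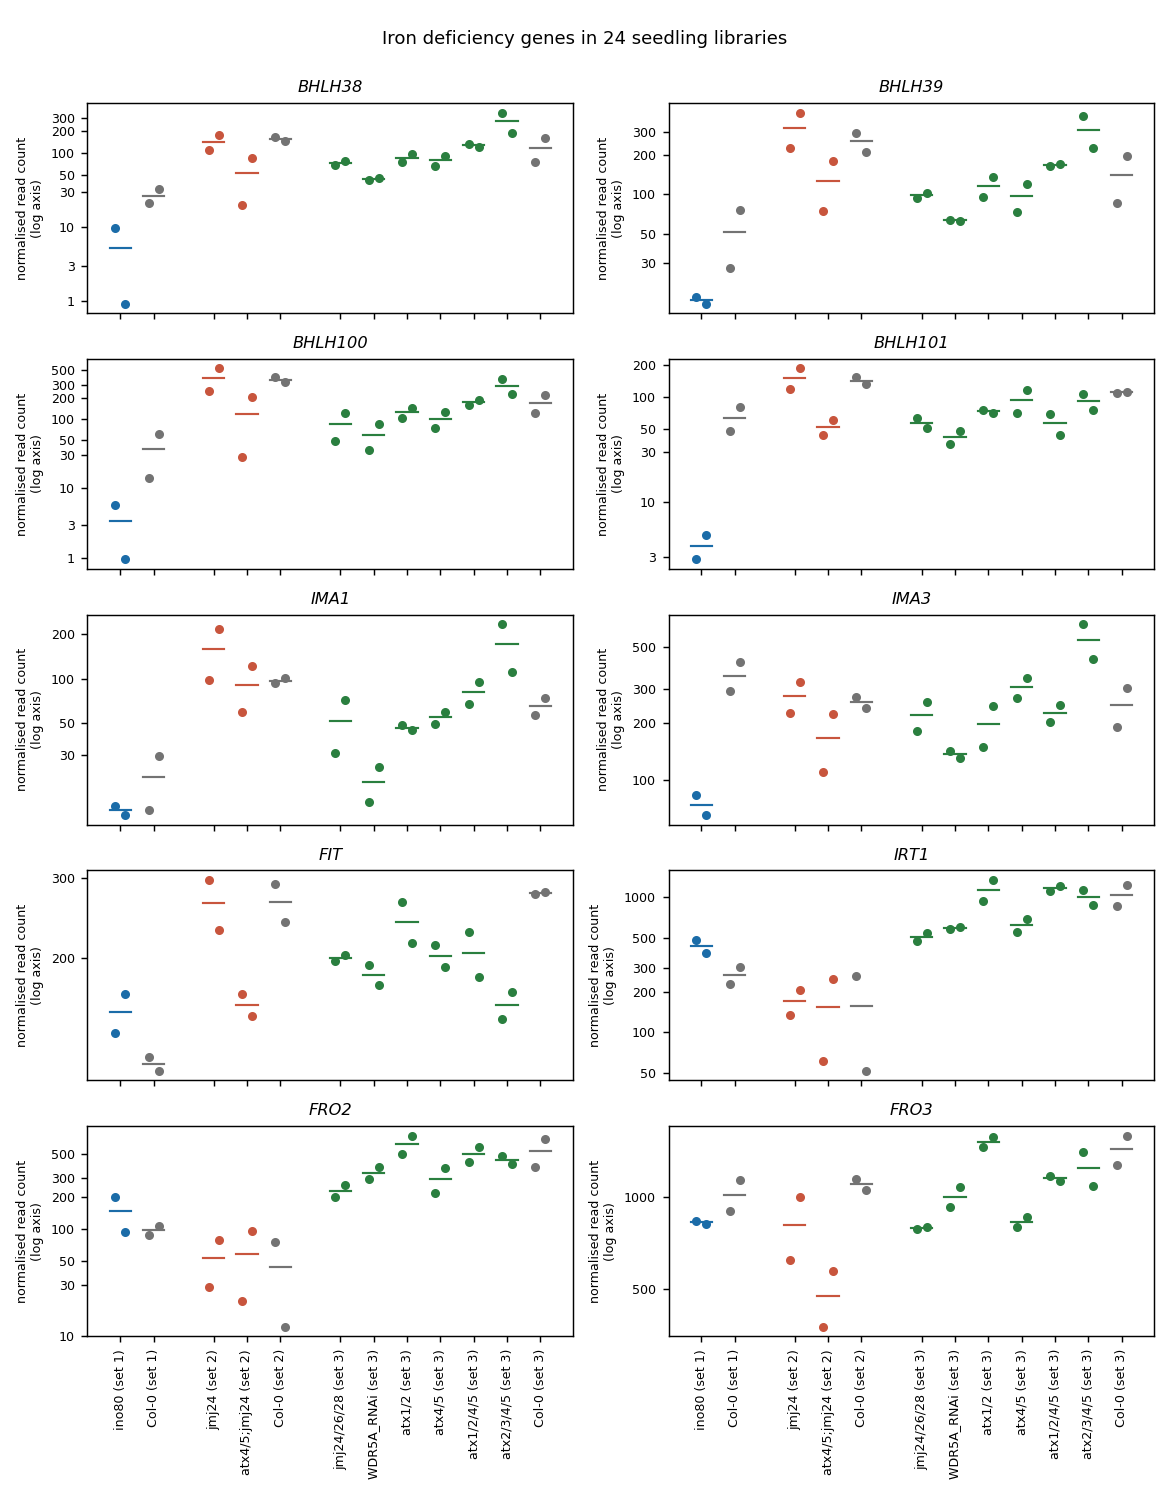
Normalised read counts (log axis) of the 10 genes in each of 24 libraries, with genotypes on the horizontal axis and 1 point per library. Short lines are group means, colours mark the 3 tables, and Col-0 is grey, at the right of its table. The ino80 points of BHLH101 lie at 2.87 and 4.88, below its Col-0 points at 47.2 and 79.6, and those of BHLH38, BHLH39, IMA1 and IMA3 in atx2/3/4/5 lie above Col-0 of set 3.

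The number of members past the test differed between genotypes. A gene is called where the adjusted p of limma, Benjamini-Hochberg over all genes tested in the table, was under 0.05. In ino80, 1 of the 10 members was higher and 2 were lower than in Col-0, where 10.7% of all genes tested were higher and 11.7% lower. In jmj24, 0 members were called, with a background of 1.39% higher and 1.43% lower. In atx4/5;jmj24, 0 were higher and 2 lower, with a background of 3.2% higher and 4.51% lower. In jmj24/26/28, 0 were higher and 2 lower, with a background of 1.26% and 2.58%. The libraries labelled WDR5A_RNAi had 5 members lower and 0 higher, where 5.03% of all genes tested were lower and 4.52% higher. In atx1/2, 0 members were called (background 0.0805% higher and 0.201% lower), and in atx4/5, 1 was lower and 0 higher (background 2.27% lower and 0.962% higher). In atx1/2/4/5, 2 of 10 were lower and 0 higher, with a background of 17.1% lower and 16.2% higher, so the share lower was near the background. The libraries labelled atx2/3/4/5 had 4 of 10 higher and 1 lower, where 17.8% of all genes tested were higher and 20.1% lower. A count of 1 or 2 among 10 members is read against these shares, which are large in ino80 and both quadruple mutants.

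Over all 10 members, called or not, the median log2 fold change against Col-0 was -1.05 in ino80, 0.07 in jmj24, -0.92 in atx4/5;jmj24, -0.71 in jmj24/26/28 and -0.92 in WDR5A_RNAi. It was -0.27 in atx1/2, -0.47 in atx4/5, 0.01 in atx1/2/4/5 and 0.39 in atx2/3/4/5. The median over all genes tested was within 0.1 of 0 in every comparison. Both libraries of WDR5A_RNAi lay below both Col-0 libraries for 9 of 10 members, those of atx4/5;jmj24 for 7, and those of ino80 and jmj24/26/28 for 6 each. Both libraries of atx2/3/4/5 lay above both Col-0 libraries for 5 members and below for 2. The share of all genes tested that lay apart in this way was not computed. These counts, and later ones of members or markers without overlap, are therefore descriptions of the values only.

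In jmj24 and atx1/2, where 0 members were called in limma, 0 and 1 of the 10 had an unadjusted p under 0.05. The 1 in atx1/2 was BHLH101, at 74.9 and 70.9 against 110 and 112 in Col-0 of set 3 (log2 fold change -0.60 ± 0.28; adjusted p = 0.689 in limma). FIT, at 265 and 215 against 276 and 279, and IMA1, at 47.8 and 44.4 against 56.2 and 73.3, also lay below both Col-0 libraries in atx1/2 without passing the test. In jmj24 FRO3 was the 1 member without overlap, at 625 and 995 against 1140 and 1052 in Col-0 of set 2 (adjusted p = 0.642 in limma).

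**Figure D2:**
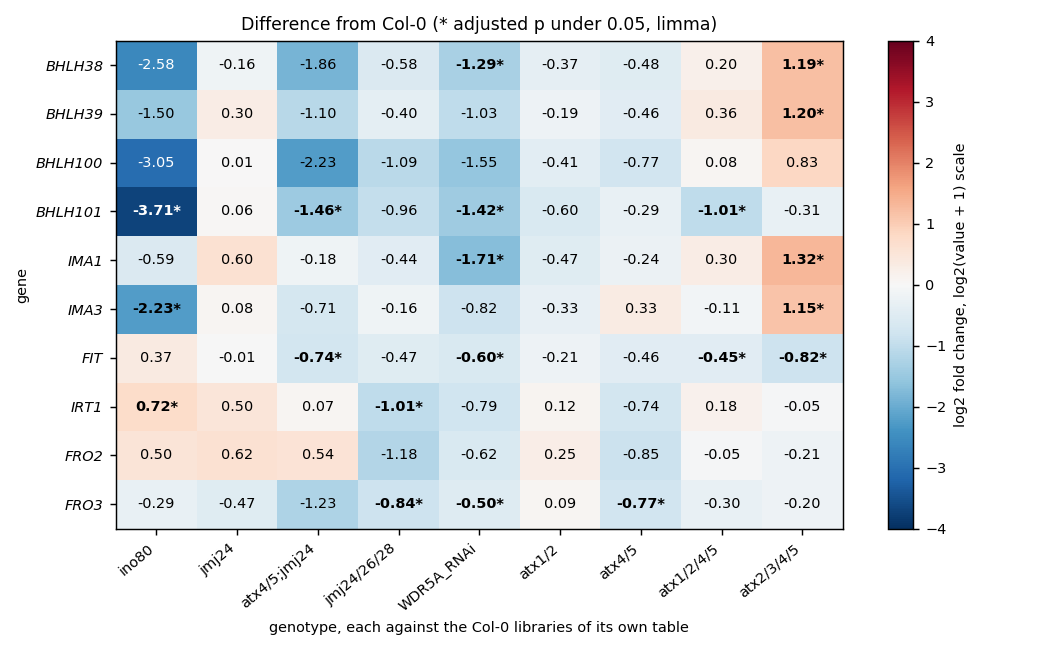
Log2 fold change against Col-0 of the same table for the 10 genes (rows) in 9 genotypes (columns), on the log2(value + 1) scale. Blue is lower and red is higher than Col-0, and asterisks mark adjusted p under 0.05 in limma. The column of WDR5A_RNAi is blue for all 10 genes, and that of atx2/3/4/5 is red for the Ib genes other than BHLH101 and for both peptide genes.

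Among the Ib factors, BHLH101 was called lower in 4 genotypes, ino80, atx4/5;jmj24, atx1/2/4/5 and WDR5A_RNAi. It had 2.87 and 4.88 normalised read counts in ino80, against 47.2 and 79.6 in Col-0 of set 1 (log2 fold change -3.71 ± 0.39, SE; adjusted p = 0.000198 in limma). The other Ib genes were at lower values in both ino80 libraries too, without passing the test. BHLH38 had 9.71 and 0.932 in ino80, the second worth about 1 read, against 21.0 and 32.7 in Col-0 (adjusted p = 0.101 in limma). BHLH100 had 5.82 and 0.948 in ino80, against 13.9 and 60.1 in Col-0, and BHLH39 had 16.4 and 14.6 against 27.5 and 75.4 (adjusted p = 0.0893 and 0.0544 in limma). Their Col-0 libraries differed from each other by up to 4.10-fold on the scale value + 1, and at this depth the fold of a gene near 1 read is imprecise. The call for BHLH101 in ino80 against Col-0 was lost without ino80 replicate 1, where the log2 fold change was -3.41. It was also lost without the mean-variance trend.

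In atx4/5;jmj24, BHLH101 fell to 43.1 and 61.0, against 154 and 133 in Col-0 of set 2 (log2 fold change -1.46 ± 0.25; adjusted p = 0.00436 in limma). It was also lower than in jmj24 itself, at 119 and 187 (log2 fold change -1.52 ± 0.25; adjusted p = 0.0191 in limma), the 1 member called between these genotypes, where 0.152% of genes were higher and 0.594% lower. Without the mean-variance trend, both the call against Col-0 and that against jmj24 were lost. The call against jmj24 was also lost without jmj24 replicate 2 or without atx4/5;jmj24 replicate 1. Its log2 fold changes were -1.84 to -1.19 over the fits that leave out 1 library. The other Ib genes spread widely between the 2 atx4/5;jmj24 libraries. BHLH100 had 28.1 and 205 there, against 391 and 335 in Col-0, and BHLH38 had 20.1 and 87.3 against 163 and 147. BHLH39 had 74.3 and 180, against 294 and 212 in Col-0. All 3 lay below Col-0 in both libraries and none passed the test (adjusted p = 0.334 to 0.441 in limma).

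In the libraries labelled WDR5A_RNAi, BHLH101 fell to 35.7 and 47.1, against 110 and 112 in Col-0 of set 3 (log2 fold change -1.42 ± 0.28; adjusted p = 0.00497 in limma), and BHLH38 to 42.8 and 46.9, against 76.8 and 161 (log2 fold change -1.29 ± 0.33; adjusted p = 0.0295 in limma). BHLH39 had 63.2 and 62.8 against 86.1 and 195 in Col-0, and BHLH100 had 35.8 and 82.4 against 121 and 216, neither called. All 4 Ib genes thus stood below both Col-0 libraries in these libraries. The call for BHLH38 was lost without Col-0 replicate 2 or without either WDR5A_RNAi library (log2 fold change -1.82 to -0.76), and that for BHLH101 was kept without any 1 library. Both calls were lost with a fit to the 2 groups alone.

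The libraries labelled atx2/3/4/5 had the highest BHLH38 and BHLH39 of set 3, with a gap between their own replicates. BHLH38 rose to 352 and 185, against 76.8 and 161 in Col-0 (log2 fold change 1.19 ± 0.33; adjusted p = 0.013 in limma), and BHLH39 to 394 and 225, against 86.1 and 195 (log2 fold change 1.2 ± 0.38; adjusted p = 0.0292 in limma). BHLH100 had 370 and 223 against 121 and 216 (adjusted p = 0.3 in limma). BHLH101 was not higher, at 107 and 75.2 against 110 and 112 in Col-0 (log2 fold change -0.31 ± 0.28; adjusted p = 0.418 in limma). Both rises lost their call without Col-0 replicate 1 or atx2/3/4/5 replicate 1, with log2 fold changes down to 0.66 for BHLH38 and 0.61 for BHLH39. In atx1/2/4/5, BHLH101 fell to 68.4 and 43.7 (log2 fold change -1.01 ± 0.28; adjusted p = 0.00999 in limma), a call lost without atx1/2/4/5 replicate 2 (log2 fold change of -0.69 at the weakest). BHLH38 was at 135 and 122, BHLH39 at 163 and 170 and BHLH100 at 156 and 186 there, all within the Col-0 range.

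The ratio of BHLH101 to BHLH38 within a library is given as a description, and a difference in response between Ib genes was not tested. It was 0.507 and 0.358 in atx1/2/4/5 and 0.303 and 0.407 in atx2/3/4/5, against 1.44 and 0.696 in Col-0 of set 3. These 4 quadruple mutant libraries held the lowest ratios of the table, since the other 8 mutant libraries of set 3 lay between 0.637 and 1.25. In set 2 the ratio was 1.07 in both jmj24 libraries and 2.15 and 0.699 in atx4/5;jmj24, against 0.940 and 0.904 in Col-0. In ino80 it was 0.295 and 5.24, where BHLH38 was near 1 read in the second library.

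**Figure D3:**
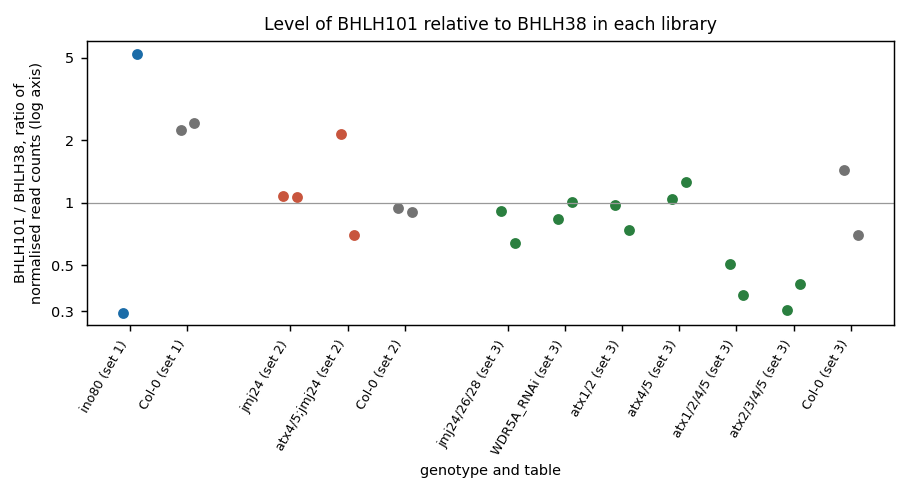
Ratio of the normalised read counts of BHLH101 to those of BHLH38 (log axis) in each library, with 1 point per library and genotypes on the horizontal axis, Col-0 at the right of its table. The 4 points of atx1/2/4/5 and atx2/3/4/5 lie between 0.303 and 0.507, below every other library of set 3.

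FIT, the partner of the Ib factors and the activator of the uptake genes, was called lower in 4 genotypes that carry atx4 and atx5 mutations or the WDR5A_RNAi label. The libraries labelled atx2/3/4/5 had 146 and 168, against 276 and 279 in Col-0 of set 3 (log2 fold change -0.82 ± 0.15; adjusted p = 0.00033 in limma). FIT thus fell where BHLH38 and BHLH39 rose, and this call was kept under every alternative. FIT had 193 and 174 in the libraries labelled WDR5A_RNAi (log2 fold change -0.60 ± 0.15; adjusted p = 0.0181 in limma), and in atx1/2/4/5 it had 227 and 181 (log2 fold change -0.45 ± 0.15; adjusted p = 0.026 in limma). In atx4/5;jmj24 FIT had 166 and 149, against 291 and 239 in Col-0 of set 2 (log2 fold change -0.74 ± 0.16; adjusted p = 0.0138 in limma). These 3 calls were each lost without 1 or more libraries. For WDR5A_RNAi these were either Col-0 library or WDR5A_RNAi replicate 2 (log2 fold change -0.67 to -0.52), and for atx1/2/4/5 either Col-0 library or atx1/2/4/5 replicate 2 (-0.61 to -0.29). For atx4/5;jmj24 they were Col-0 replicate 3 or atx4/5;jmj24 replicate 2 (-0.88 to -0.60). In atx4/5 without further mutations FIT had 214 and 190, below both Col-0 libraries but not called (adjusted p = 0.114 in limma). In ino80 it had 137 and 167, above 121 and 112 in Col-0 of set 1, and was not called (adjusted p = 0.107 in limma).

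The peptide genes IMA1 and IMA3 moved in opposite directions in different genotypes. IMA3 fell in ino80 to 82.9 and 65.2, against 291 and 415 in Col-0 of set 1 (log2 fold change -2.23 ± 0.19; adjusted p = 0.000214 in limma), a call kept without any 1 library and lost without the mean-variance trend. IMA1 was at 13.5 and 11.7 in ino80, against 12.7 and 29.6, and was not called. IMA1 rose in the libraries labelled atx2/3/4/5, to 235 and 112, against 56.2 and 73.3 in Col-0 of set 3 (log2 fold change 1.32 ± 0.41; adjusted p = 0.0217 in limma), and IMA3 to 658 and 434, against 190 and 305 (log2 fold change 1.15 ± 0.31; adjusted p = 0.0162 in limma). Both peptide genes were above both Col-0 libraries there, and both calls were lost without Col-0 replicate 1 or atx2/3/4/5 replicate 1 (log2 fold change from 0.79 for IMA1 and from 0.81 for IMA3). IMA1 fell in the libraries labelled WDR5A_RNAi, to 14.3 and 25.0 (log2 fold change -1.71 ± 0.41; adjusted p = 0.0211 in limma), a call lost without either Col-0 library or WDR5A_RNAi replicate 1 (-2.09 to -1.32). IMA3 was at 142 and 131 in those libraries and was not called. Its neighbour IMA2, which lies 1876 bases from IMA1 on the same strand of chromosome 1, followed IMA1, with 346 and 196 in atx2/3/4/5 and 25.5 and 29.3 in WDR5A_RNAi, against 63.5 and 110 in Col-0 (log2 fold changes 1.63 ± 0.39 and -1.58 ± 0.39; adjusted p = 0.00575 and 0.0261 in limma).

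IRT1, the root iron transporter, rose in ino80 while BHLH101 and IMA3 fell. It had 481 and 389 in ino80, against 227 and 302 in Col-0 of set 1 (log2 fold change 0.72 ± 0.16; adjusted p = 0.0234 in limma). Leaving out Col-0 replicate 5 or either ino80 library ended the call (log2 fold change 0.52 to 0.93), as did a fit without the mean-variance trend. FRO2, its companion reductase, had 202 and 94.1 against 88.8 and 106, with overlap between the groups. In jmj24/26/28 IRT1 fell to 479 and 547, against 863 and 1238 in Col-0 of set 3 (log2 fold change -1.01 ± 0.22; adjusted p = 0.0413 in limma), a call that ended when Col-0 replicate 2 or either jmj24/26/28 library was left out (-1.27 to -0.75). FRO2 had 199 and 256 there, against 378 and 701, below both but not called (adjusted p = 0.162 in limma). IRT1 had 586 and 607 and FRO2 293 and 382 in the libraries labelled WDR5A_RNAi, and in atx4/5 IRT1 had 551 and 697 and FRO2 219 and 375. IRT1 lay below both Col-0 libraries in both genotypes, as did FRO2 in atx4/5, and none was called (IRT1 adjusted p = 0.0582 and 0.135 in limma, FRO2 0.367 and 0.349).

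In both quadruple mutants IRT1 stood within the range of Col-0. It had 1126 and 1215 in atx1/2/4/5 and 1133 and 886 in atx2/3/4/5, and FRO2 had 425 and 582 and 487 and 409. The fitted differences from Col-0 were 0.18 ± 0.22 and -0.05 ± 0.22 for IRT1. In set 2 the Col-0 libraries themselves differed in IRT1, with 263 and 51.6, and in FRO2, with 75.3 and 12.2, so that the standard error of a difference was 1.23 for IRT1 and 1.39 for FRO2. Changes of that size, and larger ones up to several standard errors, could go uncalled there.

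FRO3, the mitochondrial reductase gene, fell in 3 genotypes of set 3. It had 787 and 796 in jmj24/26/28, against 1271 and 1578 in Col-0 (log2 fold change -0.84 ± 0.12; adjusted p = 0.00138 in limma). It had 799 and 860 in atx4/5 (log2 fold change -0.77 ± 0.12; adjusted p = 0.00306 in limma). These replicates were close together, the fall in jmj24/26/28 was kept under every alternative, and that in atx4/5 was lost only with a fit to the 2 groups alone. FRO3 had 929 and 1072 in the libraries labelled WDR5A_RNAi (log2 fold change -0.50 ± 0.12; adjusted p = 0.0207 in limma), lost without Col-0 replicate 2 or WDR5A_RNAi replicate 1 (-0.66 to -0.35). In atx4/5;jmj24 it had 378 and 576, against 1140 and 1052 in Col-0 of set 2, a log2 difference of -1.23 ± 0.35 that was not called (adjusted p = 0.174 in limma). In the quadruple mutants FRO3 was at 1172 and 1124 in atx1/2/4/5 and 1401 and 1082 in atx2/3/4/5, neither called.

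Comparisons between mutants ask what the added mutations did on top of a smaller set, as far as the labels hold, since ATX1 and ATX2 transcripts were not called lower in any genotype named for them and ATX3 was higher in the libraries labelled atx2/3/4/5. Relative to atx4/5, atx2/3/4/5 had 5 members higher and 0 lower, where 17.5% of genes were higher and 19.1% lower. These were BHLH38 (log2 fold change 1.67 ± 0.33), BHLH39 (1.65 ± 0.38), IMA1 (1.57 ± 0.41), IRT1 (0.69 ± 0.22) and FRO3 (0.57 ± 0.12). The adjusted p in limma was 0.00154 for BHLH38 and 0.00217 for FRO3, both kept under every alternative. The other 3 were lost without atx4/5 replicate 1, and those of IMA1 and IRT1 also without atx2/3/4/5 replicate 1 (lowest log2 fold changes 1.25, 1.03 and 0.51 for BHLH39, IMA1 and IRT1). Relative to atx4/5, atx1/2/4/5 had 2 members higher, IRT1 (0.92 ± 0.22; adjusted p = 0.0114 in limma) and FRO3 (0.47 ± 0.12; adjusted p = 0.00847 in limma), where 16.4% of genes were higher and 17% lower. Both calls were lost without atx4/5 replicate 1, and also without atx1/2/4/5 replicate 2 for IRT1 and replicate 1 for FRO3 (down to 0.74 and 0.42). The level of IRT1 was thus 551 and 697 in atx4/5, below both quadruple mutants that carry the same 2 mutations and below Col-0. These comparisons share the atx4/5 libraries.

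Relative to atx1/2, atx1/2/4/5 had 1 member called, FRO3, at 1172 and 1124 against 1447 and 1568 (log2 fold change -0.39 ± 0.12; adjusted p = 0.0248 in limma), where 15.1% of genes were higher and 15.9% lower. The call was lost without any 1 of the 4 libraries (-0.45 to -0.33). Between the quadruple mutants, atx1/2/4/5 against atx2/3/4/5 had 1 member called, IMA3, at 203 and 246 against 658 and 434 (log2 fold change -1.26 ± 0.31; adjusted p = 0.0243 in limma), where 8.84% of genes were higher and 6.76% lower. It was lost without either atx1/2/4/5 library or atx2/3/4/5 replicate 1 (-1.55 to -0.96). All 4 Ib genes and IMA1 also had lower values in atx1/2/4/5 than in atx2/3/4/5 without overlap, with log2 differences of -0.99 for BHLH38, -0.83 for BHLH39, -0.75 for BHLH100, -0.70 for BHLH101 and -1.02 for IMA1, and FIT was higher without overlap, by 0.37. None of these passed the test.

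By their median, the 10 genes varied more between replicates than genes in general, and those other than FIT tended to do so together. The median absolute log2 difference between the 2 libraries of a group was 0.176 to 1.15 over the members, against 0.118 to 0.138 over all genes tested. In atx4/5;jmj24, 9 of 10 members were higher in replicate 2, in Col-0 of set 3 all 10 were, and in atx2/3/4/5 1 of 10 was. The labels do not say what the replicate numbers stand for. The sign of a difference, and with it the Pearson r values that follow, depends on this numbering. Across the 12 groups, the replicate difference of the mean of the 4 Ib genes had a Pearson r of 0.75 with that of IMA1, 0.85 with IMA3, 0.69 with IRT1, 0.73 with FRO2 and 0.85 with FRO3, and of -0.45 with FIT. That of IRT1 had r = 0.95 with that of FRO2. These are descriptions over 12 groups of 2 libraries, whose members share each library.

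Many calls rested on single libraries. Of 30 calls over all 14 comparisons, 8 were kept without any 1 library and 4 under every alternative. In the same groups, the median replicate difference of the upstream activators, from -0.06 to 0.04, was near 0, while root markers differed by a median of -0.40 between the Col-0 libraries of set 3, in which all 10 members were higher in the library with the lower root markers. Seed and embryo markers differed more between replicates, by medians of -1.39 in Col-0 of set 3, -1.60 in jmj24, -1.78 in atx4/5;jmj24, -2.83 in atx1/2 and -1.59 in atx4/5. In these 5 groups the median of the members was higher in the library with the lower seed markers, by 0.60, 0.66, 1.15, 0.39 and 0.39 in the same order. In ino80 both were lower in the same library (-2.51 for seed markers and -0.25 for members), and in atx1/2/4/5 both were higher (1.36 and 0.09). The part of tissue make-up and of seed residues in the replicate differences was not tested.

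**Figure D4:**
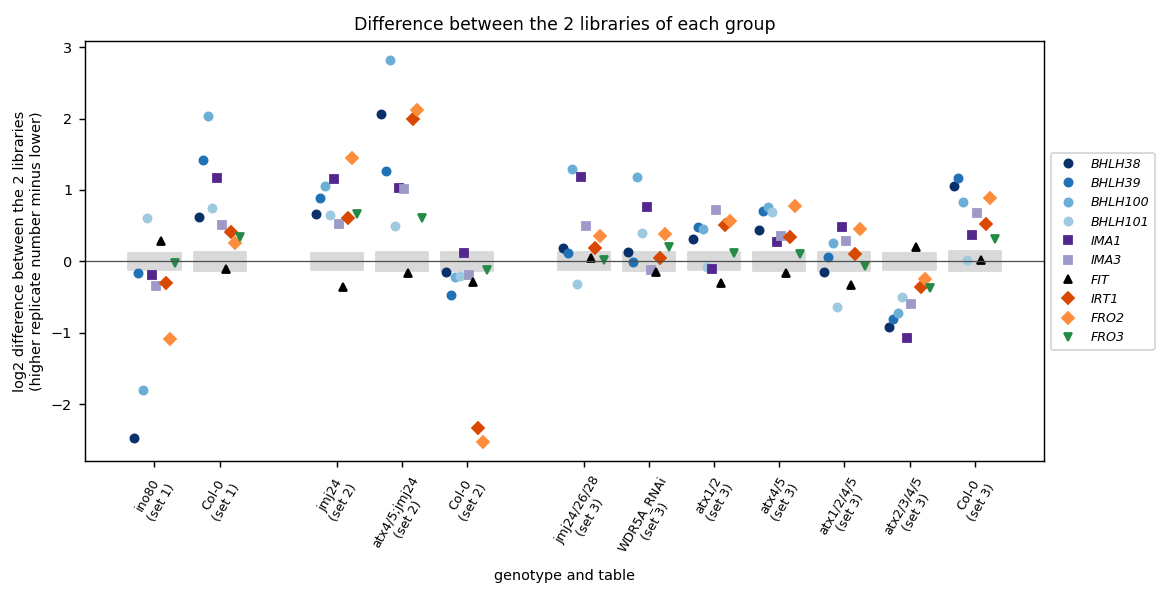
Log2 difference between the 2 libraries of each of 12 groups (higher replicate number minus lower) for the 10 genes, 1 symbol per gene. Grey bars span the median absolute difference of all genes tested on either side of 0. In atx4/5;jmj24 the Ib genes, IRT1 and FRO2 differ by up to 2.82 on the log2 scale while FIT lies near 0.

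Over all 24 libraries, each centred on its own table, the Ib genes followed each other with a Pearson r of 0.67 to 0.95. IRT1 and FRO2 had r = 0.94, and their r with BHLH101 was near 0. FIT had r of -0.08 to 0.09 with the Ib genes. These values mix differences between genotypes with those between replicates, and libraries of a table share its Col-0 and its normalisation.

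The 5 genes outside the 10 whose pattern was most like the mean of the 4 Ib genes were AT1G13609 (r = 0.93), AT1G13608 (r = 0.93), BTS (AT3G18290, r = 0.91), AT2G14247 (r = 0.91) and AT5G05250 (r = 0.91), among 22543 genes over 24 libraries. These 5 genes were picked on the same 24 libraries, so changes on the side of the Ib genes follow in part from that choice. Their values below are descriptions and no separate evidence. RefSeq annotates AT1G13609 and AT1G13608, neighbours on chromosome 1, as defensin-like family proteins, and AT2G14247 and AT5G05250 as uncharacterized. AT1G13609 had 17.5 and 3.82 normalised read counts in ino80, against 112 and 183 in Col-0 of set 1, and 1182 and 603 in atx2/3/4/5, against 241 and 365 in Col-0 of set 3. Both differences were on the sides of BHLH38, and neither was called (adjusted p = 0.0587 and 0.101 in limma). AT5G05250 fell in ino80 to 78.0 and 80.9, against 284 and 291 (log2 fold change -1.84 ± 0.12; adjusted p = 2.2e-05 in limma), and in the libraries labelled WDR5A_RNAi to 403 and 396, against 555 and 786 (-0.72 ± 0.19; adjusted p = 0.0428 in limma). AT2G14247 fell in ino80 to 32.8 and 26.3, against 85.9 and 134 in Col-0 (log2 fold change -1.83 ± 0.25; adjusted p = 0.000823 in limma).

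Counts over the pathway lists are read against all genes tested, of which 16.2% were higher and 17.1% lower in atx1/2/4/5, 17.8% and 20.1% in atx2/3/4/5 and 10.7% and 11.7% in ino80. In these genotypes 1 or 2 called genes in a list of 5 to 8, or 3 of 14, rest on few genes. A share such as 2 of 5 lies above that background, but no difference from it was tested. Only the values of the genes named are results. Of 5 upstream activators, the subgroup IVb and IVc bHLH genes, 1 was higher and 2 lower in atx1/2/4/5, 2 were lower in atx2/3/4/5, 1 was lower in WDR5A_RNAi, 1 was higher in atx4/5;jmj24 and 0 were called in the other 5 genotypes. BHLH121, a subgroup IVb factor, had 1136 and 1108 in atx1/2/4/5 and 1104 and 1093 in atx2/3/4/5, against 1519 and 1704 in Col-0 (log2 fold changes -0.52 ± 0.07 and -0.55 ± 0.07; adjusted p = 2.65e-05 and 1.05e-05 in limma). Its partner ILR3 fell less, with log2 fold changes of -0.30 ± 0.07 and -0.24 ± 0.07. In atx2/3/4/5 these 2 activators thus fell where BHLH38 and BHLH39 rose. The list's median differences from Col-0 stayed between -0.09 and 0.15 in all 9 genotypes.

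Of 5 ubiquitin ligase and repressor genes, 2 were lower and 1 higher in ino80. BTS, the ligase that restrains the response, fell in ino80 to 1236 and 1279, against 1976 and 2380 in Col-0 (log2 fold change -0.79 ± 0.09; adjusted p = 0.000495 in limma), and PYE, a bHLH repressor, to 134 and 138, against 249 and 264 (-0.91 ± 0.11; adjusted p = 0.00056 in limma). BTSL2, a root ligase related to BTS, rose to 597 and 627, against 407 and 430 (0.55 ± 0.08; adjusted p = 0.00127 in limma). In ino80, BTS and PYE thus moved with BHLH101 and IMA3, and BTSL2 with IRT1. BTS was higher in atx2/3/4/5, at 5255 and 4367 against 3563 and 4092 (0.33 ± 0.11; adjusted p = 0.041 in limma), and BTSL1 was lower in WDR5A_RNAi, at 781 and 681 against 933 and 1198 (-0.54 ± 0.13; adjusted p = 0.0239 in limma).

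The subgroup IVa bHLH factors BHLH18, BHLH19, NAI1 and BHLH25 can pair with FIT and promote its breakdown. Of these, BHLH25 rose in both quadruple mutants, to 135 and 91.1 in atx1/2/4/5 and 98.5 and 88.6 in atx2/3/4/5, against 18.4 and 19.5 in Col-0 (log2 fold changes 2.49 ± 0.30 and 2.24 ± 0.30; adjusted p = 1.46e-05 and 2.7e-05 in limma). No other gene of the list was called in any genotype, with 3 of the 4 tested in set 1. FIT was called lower in these 2 genotypes, and also in WDR5A_RNAi and atx4/5;jmj24, where 0 of the 4 subgroup IVa genes were called.

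Of 11 other root uptake and coumarin genes, 3 were lower in WDR5A_RNAi, 2 lower in jmj24/26/28, 1 lower in atx4/5;jmj24, 4 higher in atx1/2/4/5, 3 higher in atx2/3/4/5 and 1 higher in ino80. F6'H1 (AT3G13610), which makes the coumarin scopoletin that helps to mobilise iron, rose to 552 and 537 in ino80, against 289 and 279 in Col-0 (log2 fold change 0.94 ± 0.08; adjusted p = 9.62e-05 in limma), and to 1808 and 1386 in atx1/2/4/5, against 929 and 778 (0.90 ± 0.12; adjusted p = 5.64e-05 in limma). CYP82C4, a coumarin hydroxylase gene, fell in jmj24/26/28 to 116 and 108, against 387 and 565 (-2.05 ± 0.43; adjusted p = 0.0413 in limma), beside IRT1. MYB10, a root transcription factor gene of the response, fell in atx4/5;jmj24 to 5.02 and 6.10, against 25.0 and 37.3 (-2.27 ± 0.46; adjusted p = 0.0105 in limma). In the libraries labelled WDR5A_RNAi, the coumarin exporter gene ABCG37 fell by 0.36 ± 0.07 and the proton pump gene AHA2 fell by 0.29 ± 0.06 on the log2 scale (adjusted p = 0.00468 and 0.00915 in limma).

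Of 14 genes of iron transport within the plant, 2 were higher and 6 lower in ino80. NAS2, a nicotianamine synthase, rose to 290.0 and 222, against 42.9 and 53.1 (log2 fold change 2.39 ± 0.18; adjusted p = 3.72e-05 in limma). Its relative NAS1 fell to 2683 and 2496, against 4012 and 3854 (-0.60 ± 0.06; adjusted p = 0.000154 in limma). ZIF1, a nicotianamine transporter of the vacuole, fell to 539 and 581, against 1067 and 1229 (-1.03 ± 0.08; adjusted p = 5.45e-05 in limma). The nicotianamine synthase genes thus did not move one way. In jmj24/26/28 4 of the 14 were lower and 0 higher, among them the transporter genes IREG1 and IREG2 (-0.61 ± 0.14 and -1.0 ± 0.20; adjusted p = 0.0239 and 0.0108 in limma). In atx2/3/4/5 4 were higher and 2 lower, with OPT3, a phloem transporter that signals iron status to roots, at 5475 and 4723 against 2724 and 3428 (0.73 ± 0.14; adjusted p = 0.00267 in limma). In atx1/2/4/5 3 were higher and 3 lower, near the background, and in WDR5A_RNAi 1 was higher and 2 lower. None was called in jmj24, atx4/5;jmj24, atx1/2 and atx4/5.

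Of 8 iron storage genes, ferritins and vacuolar iron transporters, 3 were lower and 0 higher in atx2/3/4/5, 1 was lower and 2 higher in atx1/2/4/5, 2 were lower and 1 higher in ino80, 1 was lower in atx4/5;jmj24 and 1 higher in WDR5A_RNAi. The one with the lowest adjusted p in atx2/3/4/5 was VTL5, at 78.0 and 116 against 233 and 206 (log2 fold change -1.19 ± 0.19; adjusted p = 0.00011 in limma). The ferritin gene FER3 was higher in atx1/2/4/5 (0.58 ± 0.16; adjusted p = 0.0145 in limma) and FER4 in WDR5A_RNAi (0.61 ± 0.15; adjusted p = 0.0239 in limma). Of the 6 other ferric reductase oxidase (FRO) genes, FRO6 and FRO7, which act in shoots, fell in ino80 and in both quadruple mutants, and FRO6 also in atx4/5;jmj24. FRO6 had 2022 and 1742 in atx2/3/4/5 and 3320 and 2377 in atx1/2/4/5, against 8143 and 7204 in Col-0 (-2.03 ± 0.19 and -1.45 ± 0.19; adjusted p = 4.42e-05 and 0.000449 in limma). FRO5, by contrast, rose in ino80 to 442 and 492, against 81.4 and 89.9 (2.43 ± 0.12; adjusted p = 4.21e-06 in limma).

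Tissue markers moved beside some of these groups. Of 8 leaf markers, 7 were lower in ino80, 8 in each quadruple mutant, 5 in atx4/5;jmj24, 3 in WDR5A_RNAi, 1 in jmj24 and 1 in jmj24/26/28, and 0 were higher in any genotype. In WDR5A_RNAi, which had the most members called lower, 7 of the 8 lay below both Col-0 libraries. Their summed level was 749644 to 762425 in ino80 against 941472 to 1020916 in Col-0, and 811227 to 837537 in atx2/3/4/5 and 981226 to 1011717 in atx1/2/4/5 against 1454056 to 1577163 in Col-0. It was 1294981 to 1402994 in WDR5A_RNAi, against the same Col-0, and 517500 to 566874 in atx4/5;jmj24, against 641905 to 645935. The shoot reductase FRO6 fell in ino80, atx4/5;jmj24 and both quadruple mutants. Of 19 root markers, 6 were higher and 1 lower in ino80, where IRT1 rose, with sums of 15304 to 16223 against 13774 to 14087 in Col-0. In WDR5A_RNAi, where 5 members fell, 0 root markers were called and their sums were 14578 to 14995, below 16856 to 19786 in Col-0. There 11 of the 19 root markers lay below both Col-0 libraries and 0 above both, with a median log2 fold change of -0.34. Where BHLH101, FIT and MYB10 fell, in atx4/5;jmj24, 3 were higher and 1 lower, with sums of 10494 to 11620, below 12602 to 12808 in Col-0. In jmj24, 4 were higher, with sums of 13466 to 13774. In jmj24/26/28, where IRT1 and FRO3 fell, 0 were called and the sums of 16911 to 17524 lay within the Col-0 range. In atx2/3/4/5 3 were higher and 3 lower, with sums of 15442 to 15507. Seed and embryo markers ranged from 5.36 to 5569 in their sums, and those of atx1/2/4/5, atx2/3/4/5 and jmj24/26/28 were 2179 or more in every library, against 285 to 542 in Col-0 of set 3. In ino80 they were 125 to 1075, against 14.4 to 29.1 in Col-0, with 3 of 6 called higher, and in jmj24 203 to 976, against 5.36 to 7.06, with 4 of 6 called higher. They were 32.8 to 108 in atx4/5;jmj24, with 1 called higher. The part of tissue make-up and of seed residues in the levels of the 10 genes was not tested.

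**Figure D5:**
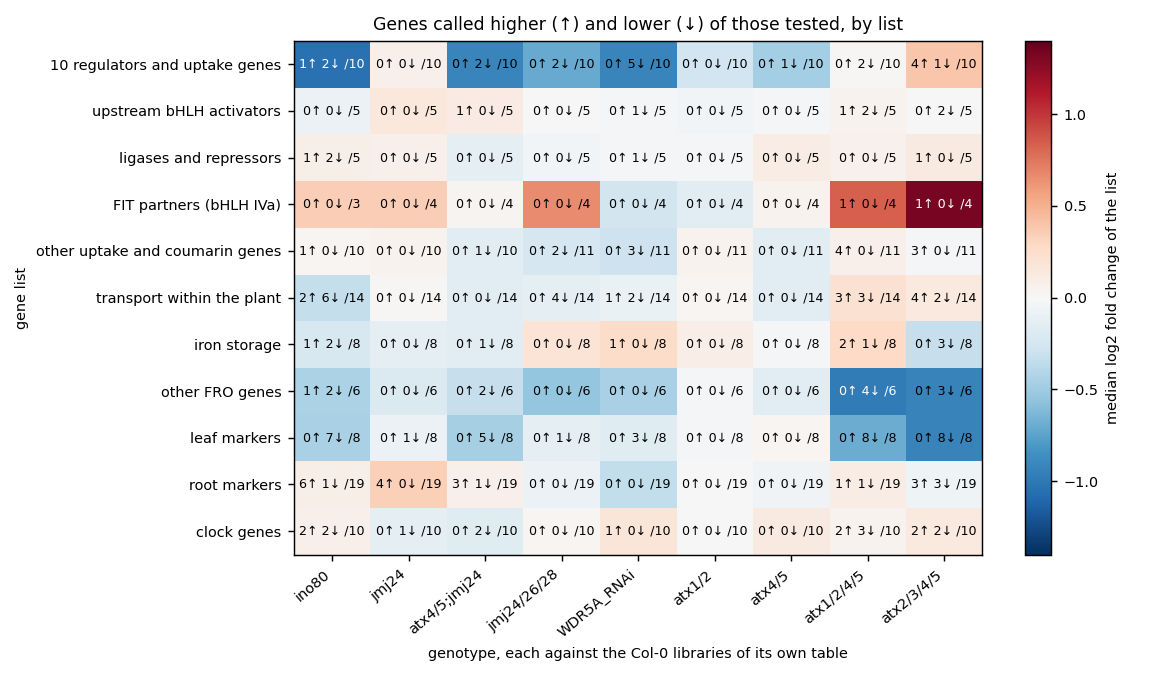
Gene lists (rows) in 9 genotypes (columns), each against Col-0 of its own table. Colour gives the median log2 fold change of the list, and each cell gives how many genes were called higher and lower of those tested. The 10 iron genes have medians of -1.05 in ino80 and -0.92 in atx4/5;jmj24 and WDR5A_RNAi, while the upstream activators stay between -0.09 and 0.15.

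Reads of some members may be shared with overlapping genes, since the strand of the libraries is not given in the sources used here. In the TAIR10.1 annotation 386 of the 1082 exon bases of BHLH38 are also exon of AT3G56960. For IMA3, with 1995 exon bases, 78 are shared with AT2G30760 and 330 with AT2G30770, while the spans of these genes overlap that of IMA3 by 639 and 572 bases. BHLH101 shares 79 of 1083 exon bases with AT5G04140 and FRO3 24 of 2785 with AT1G23010. All these neighbours lie on the opposite strand. Without strand, reads from such pairs cannot be told apart. Of the 50-base stretches of IMA1 exons, 1.37% occur elsewhere in the genome, and none of those of the other 9 members does.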

How the data were processed

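RNA was measured in 24 libraries, 2 per mutant group and 6 of Col-0. HISAT2 2.2.0, edgeR without a version and TAIR10 are named in the submitters' processing notes. The read counter, strand and filters are not given in the sources used here. The authors deposited a normalised signal for each gene, which looks like read counts adjusted to a common library size within each of 3 tables. They are not whole numbers and not scaled for length, so a length-scaled level was computed per kb of RefSeq exon where genes are compared. Columns matched samples by name, 12 exactly and 12 with slashes left out.

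The value of 1 read was estimated from the spacing of low values in each column, at 0.811 to 1.20, so a value of 10 rests on about 10 reads. Genes that reached 1 in at least 2 of a table's libraries were tested with limma 3.58.1 (R 4.3.3, statmod 1.5.0) on log2(value + 1), with all groups of the table in the fit, a mean-variance trend and robust moderation. The scale understates the fold of low genes. All adjusted p-values are from this model, two-sided, and with 2 libraries against 2 the smallest exact permutation p is 0.333. The plan allowed for raw counts, which would have called for another test, and the values are not raw counts. The steps were tested on simulated data.

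The members and gene lists were chosen with earlier results of these data known. Named were all 10 members, of each of 13 other lists (107 genes) up to 3 called genes per comparison by adjusted p, genes targeted in a genotype where a result turns on them, and the 5 genes most correlated with the mean of the 4 Ib genes on log2(value + 1) centred on each table. PRR7 in Col-0 was added after its values were seen. Alternatives were other pseudocounts, filters and scalings, no trend, only the groups compared, leaving out each library and a replicate block. Identifiers were matched to TAIR10.1, 32548 of 32548.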

Additional observations from a re-analysis of the deposited data

How the results depend on the processing

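No fold change that was called changed sign under any alternative. A direction is taken as a result only for called members. Of all 560 member values from fits without 1 library, called ones included, 62 changed sign and were called in neither fit. Under the other alternatives this held for 5 of 1220. Of 30 calls, 15 were lost without the mean-variance trend, 10 were kept under all alternatives other than leaving out a library, 8 without any 1 library and 4 under all of them. These 4 were FRO3 in jmj24/26/28 and FIT in atx2/3/4/5 against Col-0, and BHLH38 and FRO3 in atx2/3/4/5 against atx4/5. Pseudocounts of 0.5 and 5, both other filters and quantile normalization kept every count of called members within 1.5 times the value reported.

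Without the trend the count of called members was 0 in ino80, 0 in atx4/5;jmj24 against Col-0 and 0 against jmj24, 1 in jmj24/26/28, 3 in atx2/3/4/5 and 2 in WDR5A_RNAi, and 0 in atx1/2/4/5 both against atx1/2 and against atx2/3/4/5. With column totals set equal it was 1 in jmj24/26/28, 1 in atx1/2/4/5 and 0 in atx1/2/4/5 against atx1/2. With only the groups compared in the fit it was 1 in jmj24/26/28, 0 in atx4/5, 1 in atx1/2/4/5, 3 in atx2/3/4/5 and 0 in WDR5A_RNAi, and 2 in atx1/2/4/5 against atx1/2. The cause was not tested, other than that such a fit has fewer libraries behind its estimate of the spread.

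Leaving out 1 library at a time gave 1 to 5 called members in ino80, 1 to 3 in atx4/5;jmj24 against Col-0 and 0 to 2 against jmj24, 1 to 2 in jmj24/26/28, 0 to 2 in atx1/2/4/5, 2 to 5 in atx2/3/4/5 and 1 to 5 in WDR5A_RNAi. Between set 3 mutants it gave 0 in atx1/2/4/5 against atx1/2 in all 4 fits, 1 to 2 against atx4/5 and 0 to 3 against atx2/3/4/5, and 2 to 6 in atx2/3/4/5 against atx4/5. A lone library left in a group is assumed to vary like the other groups.

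The replicate numbers are shared between groups of set 3 and between the mutants of set 2. Over all genes tested, same-numbered libraries deviated together weakly. Correlations were -0.0053 to 0.108 over 21 pairs of groups in set 3, of which 2 were over 0.1, and 0.0844 in set 2. The median log2 difference of the members, replicate 2 minus 1, was -0.55 in atx2/3/4/5 and 0.09 to 0.60 in the other groups of set 3. It was 0.66 in jmj24 and 1.15 in atx4/5;jmj24. Whether the members share a replicate effect was not tested, and a correlation over all genes cannot decide it. With a replicate block 5 members were called in jmj24/26/28, 4 in atx1/2/4/5 and 8 in atx2/3/4/5, the last 2 against atx4/5, and 7 in WDR5A_RNAi. With the block and only the groups compared, 3 were called in atx4/5;jmj24 against jmj24. No paired analysis was possible for ino80, jmj24 and atx4/5;jmj24 against Col-0 because these groups share no replicate number with Col-0.

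With 2 libraries per group and Ib genes that differ by several-fold between replicates, differences of several printed standard errors could go uncalled. In ino80 against Col-0, AT1G13609 at -3.93 ± 0.82 on the log2 scale was not called (adjusted p = 0.0587 in limma). Values near 1 read in ino80 limit the folds there.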

Other observations

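Genes of neighbouring metal responses, not described above, were called in 4 of the 9 genotypes. Of 6 copper deficiency genes, the copper superoxide dismutase genes CSD1 and CSD2, which plants lower when copper is short, rose in ino80 and in atx1/2/4/5. CSD1 had 401 and 340 in ino80, against 254 and 224 in Col-0 of set 1, and 1770 and 1430 in atx1/2/4/5, against 789 and 795 in Col-0 of set 3 (log2 fold changes 0.63 ± 0.12 and 1.01 ± 0.10; adjusted p = 0.00408 and 1.39e-06 in limma). In the libraries labelled atx2/3/4/5 CSD1 rose to 1251 and 1161, and FSD1, the iron superoxide dismutase gene, fell to 25043 and 30663, against 40484 and 33609 in Col-0 (0.61 ± 0.10 and -0.41 ± 0.11; adjusted p = 0.000122 and 0.0119 in limma). In the other 6 genotypes 0 of the 6 copper genes were called.

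Of 5 zinc deficiency genes, 2 were called in ino80 and in each quadruple mutant, 1 higher and 1 lower each time, and 1 was lower in atx4/5;jmj24. In ino80 10.7% of all genes tested were higher and 11.7% lower. In the quadruple mutants 16.2% to 17.8% were higher and 17.1% to 20.1% lower. Counts of 1 of 5 or 2 of 6 rest on few genes. A share of 2 of 6 lies above this background, but no difference from it was tested. The values are given as those of single genes. The zinc transporter gene ZIP5 was higher, at 117 and 110 in ino80 against 67.8 and 69.5 in Col-0, and at 260 and 263 in atx2/3/4/5 against 169 and 156 (log2 fold changes 0.72 ± 0.16 and 0.69 ± 0.19; adjusted p = 0.01 and 0.00859 in limma). ZIP1 was lower, at 82.7 and 98.5 in ino80 against 122 and 141, and at 116 and 124 in atx2/3/4/5 against 163 and 203 (-0.54 ± 0.16 and -0.60 ± 0.17; adjusted p = 0.0397 and 0.0119 in limma).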
